A study of Mus musculus with 9 samples.

Results

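The genes of glucose output and glycogen turnover were described in the livers of male mice conceived in 3 ways. The set held 10 genes named by symbol, Pck1, G6pc, Fbp1, Pcx, Got1, Gys2, Pygl, Ppp1r3b, Ppp1r3c and Ugp2, of the 55335 genes in the expression table, and all 10 matched an Ensembl identifier and had a mean FPKM (fragments scaled by transcript length and by all mapped fragments of the library) of at least 1, as had 6755 genes in all. The mice were of the B6D2F2 strain, were 20 weeks old and had fasted for 4 h when the liver was taken. By the study's methods all of them ate chow after weaning. The NC group (mice 1, 5 and 6) was conceived naturally. The IVF group (mice 2, 3 and 4) came from embryos fertilized in vitro and transferred fresh, and the FET group (mice 2, 3 and 4) came from such embryos that were slowly frozen, thawed and then transferred. Embryos of both transfer groups were made from superovulated B6D2F1/J females and carried by ICR foster mothers, so that the foster strain, the hormone treatment and the in vitro culture cannot be told apart from fertilization in vitro against NC, while FET differed from IVF by the freezing with cryoprotectants, the thawing and a further culture in vitro before transfer, which likewise cannot be told apart. No source says whether the mice of a group came from different litters, and p-values therefore measure the spread between these mice.

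The liver makes glucose from lactate and amino acids by gluconeogenesis and releases it from stored glycogen by glycogenolysis, and both routes end in glucose 6-phosphate and glucose 6-phosphatase. During a fast, glucagon, through cyclic AMP, and glucocorticoids, through their own receptor, raise transcription of the key gluconeogenic genes, whereas insulin represses them through FOXO1. Glycogen synthesis runs from UDP-glucose through glycogen synthase, which protein phosphatase 1 activates when targeting subunits bring it to the glycogen particle.

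The libraries were uneven, which bears on every value below. The estimated depth was 2020000 to 2940000 mapped fragments in FET mice, 3890000 to 8430000 in IVF mice and 6610000 to 13370000 in NC mice, and nuclear protein-coding genes held between 4.36% and 29.3% of the summed FPKM of a library. The genes of the set are therefore described on 2 scales. These are as deposited and rescaled so that the nuclear protein-coding genes have the same sum in every mouse. Single genes outside the set are given as deposited unless stated otherwise. The tests were run on the deposited scale first. All 6 hepatocyte markers were above 0 in every mouse. The share of FPKM in 3 ribosomal RNA type genes was 26.5%, 3.49% and 5.03% in NC mice 1, 5 and 6, 61.9%, 19.3% and 18.1% in IVF mice 2, 3 and 4 and 41.8%, 29.0% and 31.0% in FET mice 2, 3 and 4. It was higher in every FET than in every NC mouse, and its part in the results was not tested. NC mouse 1 differed from the other NC mice in this share and in a summed FPKM of 66.5 over 4 muscle markers against 0.307 and 0.0493. The labels carry a number after the letter S, which is 67 in NC mouse 1, 71 to 73 in IVF mice, 74 to 76 in FET mice and far higher in NC mice 5 and 6. The sources used here do not say what it means, and by it NC mice 5 and 6, not NC mouse 1, lay apart from the transfer mice. In bulk liver, fewer cells of a type and less RNA per cell cannot be told apart.

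Pck1 and G6pc, the first committed step of gluconeogenesis and its last step, were the most abundant of the 10 genes. In NC mice, mean FPKM (per length, as deposited, n = 3) ran from 150 ± 47.5 (SD) for Pck1 through 94.0 ± 79.1 for G6pc, 26.5 ± 17.6 for Fbp1, 26.4 ± 5.62 for Ugp2, 23.8 ± 11.04 for Gys2, 18.7 ± 4.51 for Pcx, 16.9 ± 13.0 for Ppp1r3b, 15.1 ± 10.8 for Got1 and 11.04 ± 4.61 for Pygl to 1.69 ± 0.581 for Ppp1r3c. The ranges of neighbours in this order overlapped, apart from those of Pygl and Ppp1r3c. Gene positions are given below as annotated in GENCODE vM21 on GRCm38. The summed FPKM of the 10 genes was 169.6, 507.6 and 474.7 in the NC mice, 79.4, 185 and 305.7 in the IVF mice and 87.1, 161.9 and 104.3 in the FET mice. After rescaling it was 207.6, 421.9 and 348.1 in NC, 232.6, 194.3 and 152.4 in IVF and 109.5, 143.8 and 264.0 in FET mice. FET mouse 4 then lay above NC mouse 1, and the groups overlapped. Pck1 made up 27.7% to 56.2% of this sum in 8 mice and 1.66% in FET mouse 2, where Fbp1 made up 33.9%.

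**Figure D1:**
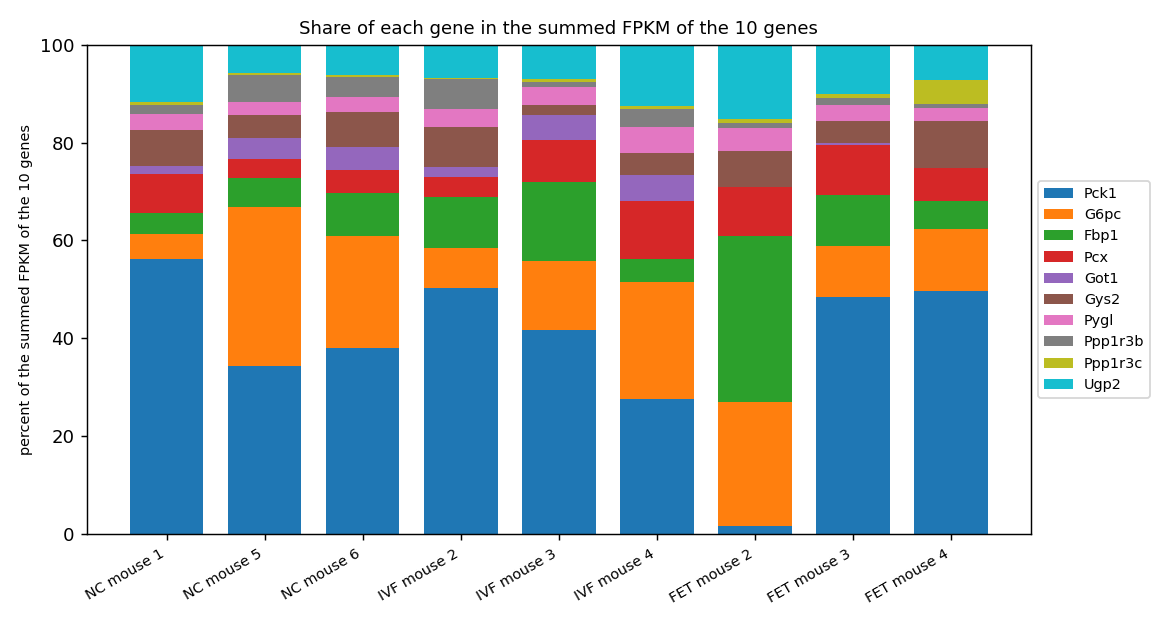
Share of each of the 10 genes in their summed FPKM, in percent (vertical axis), with 1 stacked bar per mouse. Pck1 is the widest part in 8 bars, while it is 1.66% in FET mouse 2, where Fbp1 is the widest.

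Pck1 (ENSMUSG00000027513, chr2:173153048-173159273, plus strand) encodes cytosolic phosphoenolpyruvate carboxykinase, which turns oxaloacetate into phosphoenolpyruvate. Its FPKM as deposited was 95.2, 174.3 and 180.3 in NC mice 1, 5 and 6, 39.95, 76.9 and 84.6 in IVF mice 2, 3 and 4, and 1.45, 78.3 and 51.7 in FET mice 2, 3 and 4. Every IVF and FET mouse was below every NC mouse, and FET mouse 2 stood far below all others. That value rested on an estimated 7.78 fragments, against 405 and 585 in the other FET mice, and Pck1 ranked 3953 among the nuclear protein-coding genes of that mouse and between 84 and 312 in the other mice. On the rescaled scale the values were 116.6, 145 and 132 in NC, 117.1, 80.8 and 42.2 in IVF and 1.82, 69.5 and 131 in FET mice, so that both transfer groups overlapped the NC group. The log2 fold change in FET against NC was -2.74 (SE 1.13, adjusted p = 0.325 by limma), and without FET mouse 2 it was -1.17.

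G6pc (ENSMUSG00000078650, chr11:101367561-101377903, plus strand) encodes the catalytic subunit of glucose 6-phosphatase, which frees glucose for export. As deposited, its FPKM was 8.61, 164.8 and 108.5 in NC mice, 6.50, 26.0 and 72.96 in IVF mice and 22.1, 17.0 and 13.3 in FET mice. NC mouse 1 lay below all 3 FET mice, and the other NC mice lay above every IVF and FET mouse. The same held after rescaling, with 10.5 in NC mouse 1, 137 and 79.6 in the other NC mice, and 15.1 to 36.4 in the 6 IVF and FET mice. The log2 fold change in FET against NC was -1.62 (SE 1.07, adjusted p = 0.563 by limma). Without NC mouse 1 it was -2.89, with an adjusted p of 0.257 by limma, and against NC mouse 1 alone it was 0.92, in the opposite direction.

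Fbp1 (ENSMUSG00000069805, chr13:62864753-62888282, minus strand), the fructose-bisphosphatase of the middle of the route, showed no ordering of the groups. Its FPKM as deposited was 7.24, 30.6 and 41.7 in NC mice, 8.16, 30.1 and 14.0 in IVF mice and 29.5, 16.8 and 5.88 in FET mice, and the 3 groups overlapped. After rescaling, the group means were 21.6 ± 11.3 in NC, 20.8 ± 12.6 in IVF and 22.3 ± 12.8 in FET mice (SD, n = 3). FET mouse 2, which had the lowest Pck1 of all mice, had the highest rescaled Fbp1, 37.1.

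Pcx (ENSMUSG00000024892, chr19:4510472-4621752, plus strand) encodes pyruvate carboxylase, which feeds mitochondrial pyruvate into the route as oxaloacetate. As deposited it ran from 3.24 to 36.0 FPKM over the 9 mice, with 13.7, 19.9 and 22.5 in NC, 3.24, 15.7 and 36.0 in IVF and 8.80, 16.6 and 7.11 in FET mice. Much of that range was shared by the whole library: after rescaling the highest value was 1.90 times the lowest, against 11.1 times before. The rescaled NC values, 16.7, 16.5 and 16.5, were nearly equal, and the IVF (9.49 to 17.9) and FET (11.1 to 18.0) mice lay on both sides of them.

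Got1 (ENSMUSG00000025190, chr19:43499752-43524605, minus strand), the cytosolic aspartate aminotransferase that links aspartate and oxaloacetate between cytosol and mitochondria, was the gene with the clearest difference. Its FPKM as deposited was 2.61, 20.8 and 21.8 in NC mice and 1.68, 9.52 and 16.4 in IVF mice, while in FET mice it was listed at 0 in mice 2 and 4 and was 0.710 in mouse 3. All 3 FET mice lay below every NC and every IVF mouse on both scales. The estimated fragments behind these values were 35.4, 512 and 599 in NC, 29.2, 88.3 and 131 in IVF, and 0, 4.11 and 0 in FET mice, and 3 fragments would have given 0.722 FPKM in FET mouse 2 and 0.496 in FET mouse 4. In FET against NC the log2 fold change was -3.34 (SE 0.76, adjusted p = 0.032 by limma over 6755 genes), lower in 3 of 3 FET mice. FET mouse 2, in which Pgk1 and Pgam1, enzymes that nearly all cells use, were listed at 0 as well, is 1 of these, so its 0 cannot be read as absence, and without that mouse the log2 fold change was -3.21 (adjusted p = 0.0483 by limma). With all 9 mice it was -3.21 with an adjusted p of 0.0541 by limma on the rescaled scale and -3.02 with 0.0529 under median-ratio scaling. Because most of the FET values were listed at 0, the size of the change depended on the value of 1 added before taking logs, and with 0.1 added it was -5.74. Without NC mouse 5, NC mouse 6, FET mouse 3 or FET mouse 4 the adjusted p was between 0.142 and 0.205 by limma, while without NC mouse 1 it was 0.00951.

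The promoters of Pck1, G6pc and Got1 are shown because these genes had the widest differences between mice among the enzymes of the route: from 250 bases before to 50 bases after the start site, 5′ to 3′ on the strand of the gene, from RefSeq on GRCm38.p6. Capitals mark every match, on either strand, to the motifs TGACGTCA (cyclic AMP response element), its short core TGACG, the forkhead core TGTTT, the C/EBP core TTGCGNAA, the glucocorticoid receptor core TGTTCT, the E-box CACGTG and the TATA box TATAAA. The windows are Pck1 at chr2:173152823-173153122 on the plus strand, G6pc at chr11:101367466-101367765 on the plus strand and Got1 at chr19:43524556-43524855 on the minus strand.
Pck1: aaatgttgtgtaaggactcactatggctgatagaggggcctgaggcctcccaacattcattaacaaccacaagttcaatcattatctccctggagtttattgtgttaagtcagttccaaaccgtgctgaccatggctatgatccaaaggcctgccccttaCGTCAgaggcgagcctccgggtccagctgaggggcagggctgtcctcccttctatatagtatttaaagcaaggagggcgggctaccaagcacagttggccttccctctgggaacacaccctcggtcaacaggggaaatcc
G6pc: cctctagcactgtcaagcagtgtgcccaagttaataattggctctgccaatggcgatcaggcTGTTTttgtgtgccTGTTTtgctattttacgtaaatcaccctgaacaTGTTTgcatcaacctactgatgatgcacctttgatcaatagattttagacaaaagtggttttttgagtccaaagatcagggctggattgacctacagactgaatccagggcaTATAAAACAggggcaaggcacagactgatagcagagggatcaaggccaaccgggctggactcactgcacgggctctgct
Got1: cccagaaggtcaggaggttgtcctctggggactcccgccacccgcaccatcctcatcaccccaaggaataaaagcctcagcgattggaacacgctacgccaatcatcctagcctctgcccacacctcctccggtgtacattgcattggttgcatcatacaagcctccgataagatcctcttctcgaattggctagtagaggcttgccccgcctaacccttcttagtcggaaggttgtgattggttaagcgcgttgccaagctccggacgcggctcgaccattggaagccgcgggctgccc

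Positions are counted from the start site, with negative values before it. In the Pck1 window the short core of the cyclic AMP response element was found on the reverse strand at -90, and 20.8% of 32851 promoter windows of the same length held this core on either strand. The G6pc window held 3 forkhead cores on the forward strand, at -188, -174 and -141, and 1 on the reverse strand at -25, which overlapped a TATA box at -29. A forkhead core was found in 50.5% of windows and a TATA box in 13.6%. No letters of the 7 motifs were found in the Got1 window. Of the 10 genes, 8 matched the promoter table, in 10 windows. Elsewhere in the set, the TGACG core was in a window of Pygl, the E-box in windows of Pcx and Ppp1r3c and the forkhead core in a window of Ugp2, against 7.15% of all windows for the E-box. The full response element (1.79% of all windows), the C/EBP core (0.798%) and the glucocorticoid receptor core (19.0%) were found in none of the 10 windows. These matches describe the letters of the windows.

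Gys2 (ENSMUSG00000030244, chr6:142422613-142473109, minus strand) is the glycogen synthase of liver. Its FPKM as deposited was 12.5, 24.3 and 34.6 in NC mice, 6.45, 3.67 and 13.6 in IVF mice and 6.35, 7.38 and 9.98 in FET mice. All FET mice were below all NC mice, and IVF mouse 4 reached into the NC range. After rescaling FET mouse 4, at 25.3, lay within the NC range of 15.3 to 25.4, while the other FET mice were at 7.98 and 6.55. The log2 fold changes against NC were -1.39 (SE 0.85, adjusted p = 0.523 by limma) in FET and -1.53 (adjusted p = 1.0 by limma) in IVF mice.

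Pygl (ENSMUSG00000021069, chr12:70190811-70231488, minus strand), the liver glycogen phosphorylase, breaks glycogen down. It was at 5.77, 13.0 and 14.3 FPKM in NC mice, 2.94, 6.78 and 16.8 in IVF mice and 4.10, 5.04 and 2.71 in FET mice. After rescaling the mice drew together, at 7.06, 10.8 and 10.5 in NC, 8.61, 7.13 and 8.36 in IVF and 5.15, 4.48 and 6.84 in FET mice, and every FET mouse was then below every NC and every IVF mouse. The FET values rested on an estimated 24.8, 42.4 and 23.8 fragments, and FET mouse 4 lay close below NC mouse 1. The rescaled log2 fold change in FET against NC was -0.68 (SE 0.31, adjusted p = 0.301 by limma).

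Ppp1r3b (ENSMUSG00000046794, chr8:35375739-35388139, plus strand) encodes the main liver subunit that brings protein phosphatase 1 to glycogen. Its FPKM was 2.91, 28.5 and 19.4 in NC mice, 4.82, 2.18 and 11.3 in IVF mice and 0.920, 2.33 and 0.807 in FET mice, as deposited. The FET values rested on an estimated 8.15, 28.8 and 10.4 fragments and lay below every NC mouse on both scales, by the least in NC mouse 1. In FET against NC the log2 fold change was -2.56 (SE 0.77, adjusted p = 0.13 by limma). Without NC mouse 1 the deposited change was -3.44 and passed, with an adjusted p of 0.036 by limma. Over the alternatives with more than 1 NC mouse the adjusted p by limma ran from 0.036 to 0.757.

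Ppp1r3c (ENSMUSG00000067279, chr19:36731731-36736653, minus strand) encodes a related targeting subunit and was the lowest of the 10 genes in NC mice. As deposited it was 1.13, 1.66 and 2.29 FPKM in NC, 0.310, 0.871 and 1.72 in IVF and 0.739, 1.45 and 5.21 in FET mice. FET mouse 4 had the highest value of all mice, from an estimated 41.8 fragments, and after rescaling it was at 13.2 while the other 8 mice lay between 0.859 and 1.68. The log2 fold change in FET against NC was 0.17 (SE 0.60, adjusted p = 0.936 by limma), and without FET mouse 4 it was -0.36.

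Ugp2 (ENSMUSG00000001891, chr11:21321138-21371201, minus strand) encodes the pyrophosphorylase that makes UDP-glucose. Its FPKM was 19.9, 29.9 and 29.3 in NC mice, 5.31, 13.3 and 38.5 in IVF mice and 13.2, 16.3 and 7.59 in FET mice, as deposited. After rescaling it was among the steadiest of the set, at 24.4, 24.9 and 21.5 in NC, 15.6, 14.0 and 19.2 in IVF and 16.5, 14.5 and 19.2 in FET mice. Both transfer groups then lay below every NC mouse, with rescaled log2 fold changes of -0.52 (SE 0.29, adjusted p = 0.926 by limma) in IVF and -0.48 (SE 0.29, adjusted p = 0.44 by limma) in FET. Ugp2 shares 78 exon bases with the antisense gene Gm12043, and reads there cannot be assigned where strand was not used. It is the only one of the 10 that shares exon bases with another gene in GENCODE vM21.

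**Figure D2:**
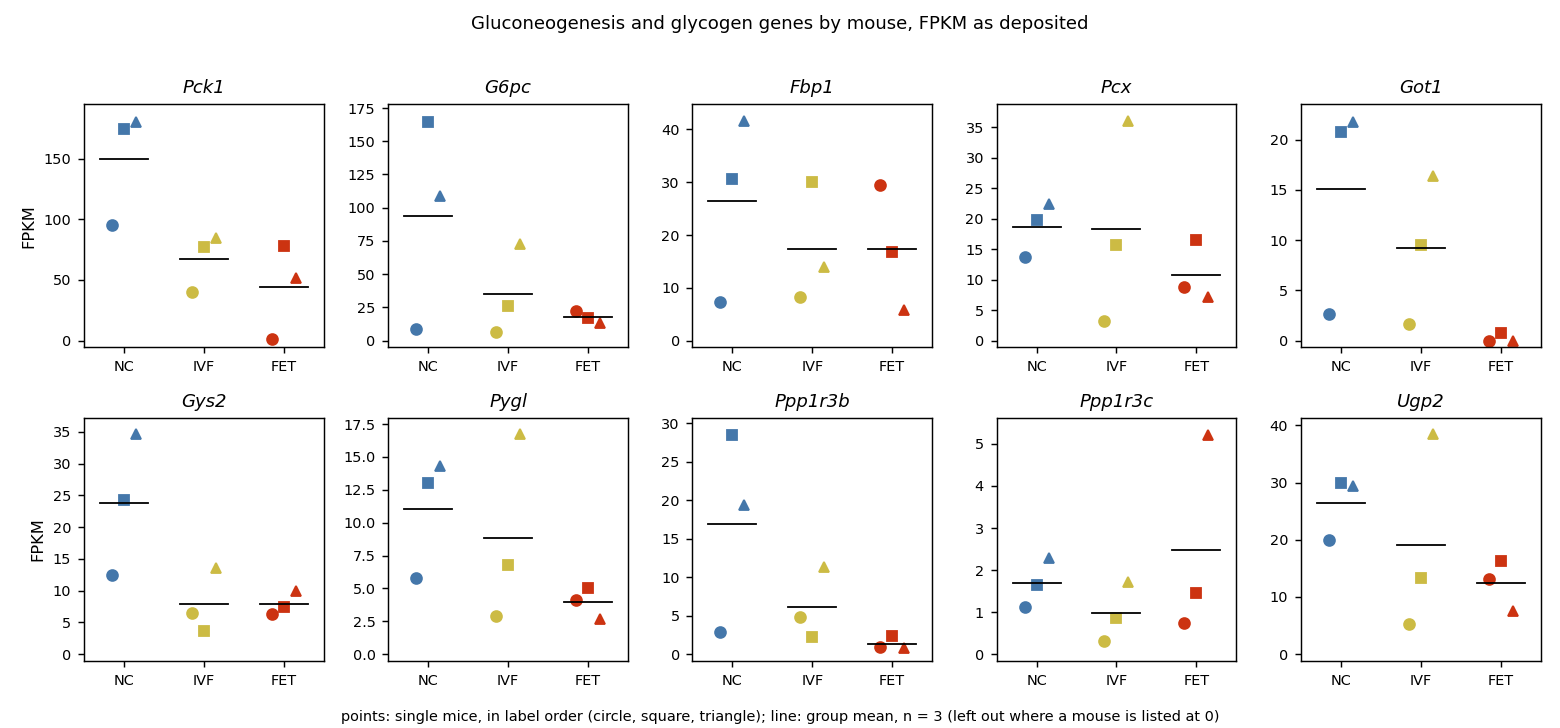
FPKM as deposited (vertical axis) of the 10 genes in each mouse, by group, with the mean of 3 mice as a line where no mouse is listed at 0. All 3 FET points lie below all 3 NC points for Pck1, Got1, Gys2, Pygl, Ppp1r3b and Ugp2.

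**Figure D3:**
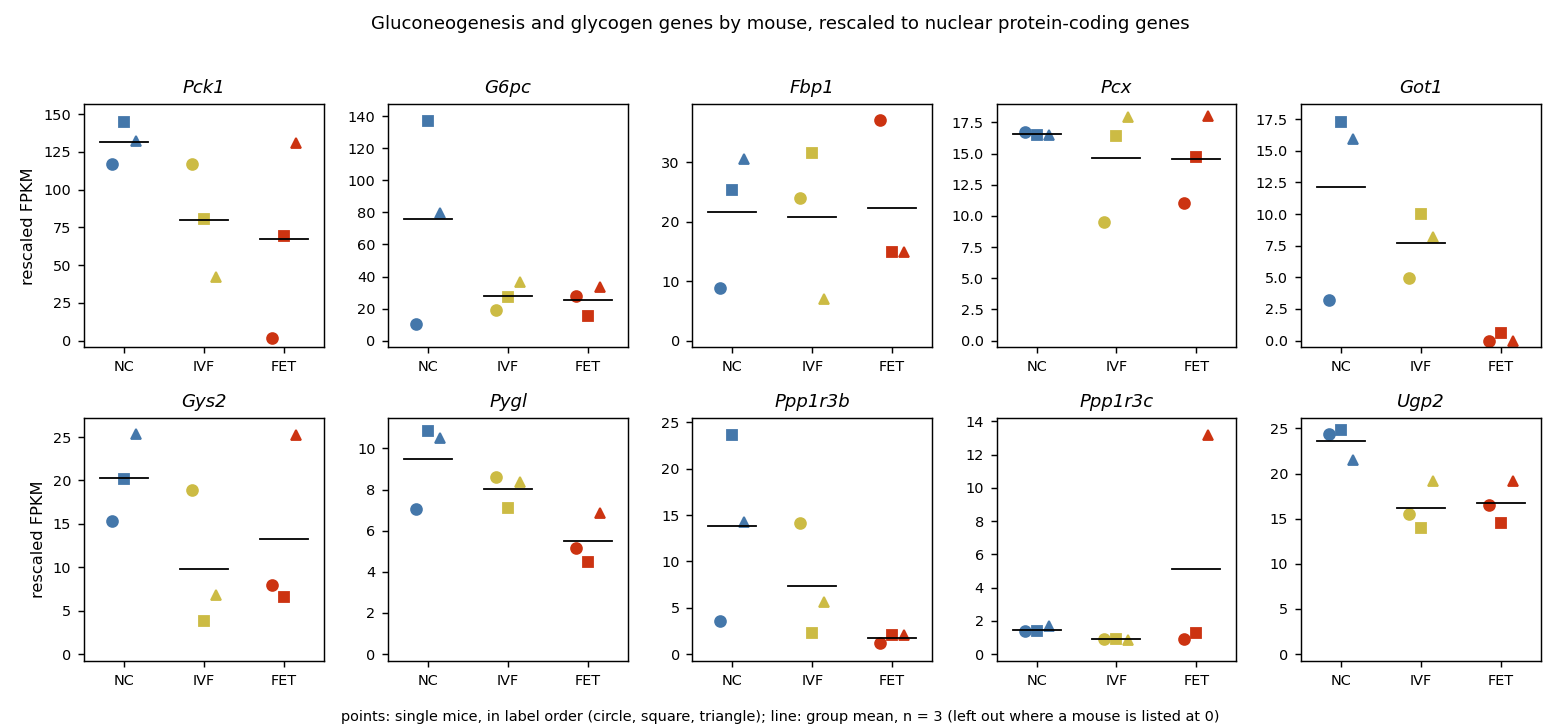
The same mice with FPKM rescaled to an equal sum of nuclear protein-coding genes (vertical axis), the mean of 3 mice as a line where no mouse is listed at 0. The points of Pcx, Pygl and Ugp2 draw together, those of Pck1, G6pc, Got1 and Ppp1r3b stay spread, and FET mouse 4 stands alone in Ppp1r3c at 13.2.

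The 10 genes thus differed in how much of their variation went with the library. The coefficient of variation over the 9 mice was lower after rescaling than before for Pcx (61.0% before, 19.7% after) and Ugp2 (58.0% and 21.6%), and for Pygl it was 28.2% after rescaling. It stayed high for G6pc (113% and 94.5%), Got1 (113% and 99.3%) and Ppp1r3b (120% and 103%), and for Ppp1r3c it was higher after rescaling (84.4% and 161%). For Pck1, Fbp1 and Gys2 it was 62.9% to 76.2% before and 49.3% to 58.1% after rescaling.

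Frozen transfer was compared with natural conception first. On the deposited scale Got1 fell, with an adjusted p of 0.032 by limma, and no other gene of the set passed the test. After rescaling none of the 10 passed (adjusted p = 0.0541 for Got1 by limma), against 0.266% of all genes tested, and the call was also lost under median-ratio scaling (adjusted p = 0.0529 by limma) and in a fit of only the 2 groups (adjusted p = 0.149 by limma). As deposited, every FET mouse was below every NC mouse for 6 of the 10 genes, against 17.1% of the 6755 genes tested, and after rescaling for 4 of 10 (Got1, Pygl, Ppp1r3b and Ugp2), against 11.5%. An unadjusted p under 0.05 with a lower level in FET was reached by 3 of 10 (Pck1, Got1 and Ppp1r3b) by limma, against 10.1% of all genes tested, and an adjusted p under 0.05 by 1 of 10, against 0.237% of all genes tested (16 genes). The median log2 fold change of the set was -1.31 and that of all genes tested was -0.46, and after rescaling the medians were -0.73 and -0.06. Of the set, 9 genes had a negative log2 fold change, as had 74.3% of all genes tested. Taken relative to the median of all genes, the values were -2.88 for Got1, -2.28 for Pck1, -2.1 for Ppp1r3b, -0.93 for Gys2, -0.76 for Pygl, -0.61 for Ugp2, -0.33 for Pcx, -0.06 for Fbp1 and 0.63 for Ppp1r3c, with G6pc between Ppp1r3b and Gys2. The summed FPKM of 5 periportal markers was 69.0 to 253 in NC and 49.9 to 65.1 in FET mice as deposited, and after rescaling the groups overlapped, at 84.4 to 210.0 and 57.1 to 126. That of 5 pericentral markers was 588 to 1040 in NC and 192 to 469 in FET mice as deposited and 603 to 762 and 345 to 486 after rescaling. None of these markers was at 0 in any mouse, and their part in the results was not tested.

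Fresh transfer was compared with the same NC mice, so both comparisons share their controls. No gene of the set passed the adjusted test by limma, against 0.0592% of the genes tested (4 genes), and none had an unadjusted p under 0.05 with a lower level in IVF, against 2.86% of the genes tested. As deposited, every IVF mouse was below every NC mouse for Pck1 alone, 1 of 10 against 5.46% of all genes tested, and after rescaling for Ppp1r3c and Ugp2, 2 of 10 against 11.3%. All 10 log2 fold changes were negative, from -1.53 for Gys2 through -1.18 for G6pc and then Pck1, -1.12 for Ppp1r3b, -0.82 for Ugp2, -0.62 for Got1, -0.49 for Pcx and Ppp1r3c and -0.47 for Pygl to -0.46 for Fbp1. Their median was -0.72, that of all genes tested was -0.25, and 68.8% of those genes were negative. After rescaling the medians were -0.45 and -0.07. Against NC mouse 1 alone, the median of the set was 0.09.

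Frozen and fresh transfer were then compared with each other. No gene of the set passed the adjusted test by limma, against 0.0888% of the genes tested (6 genes), and Got1 alone had an unadjusted p under 0.05 with a lower level in FET, 1 of 10 against 2.95% of the genes tested. Its log2 fold change was -2.72 (SE 0.76, adjusted p = 0.315 by limma). As deposited, Got1 was also the only gene for which every FET mouse was below every IVF mouse, 1 of 10 against 2.56% of all genes tested. After rescaling these were Got1, Pygl and Ppp1r3b, 3 of 10 against 6.01% of all genes tested. The gaps were narrow for Pygl and Ppp1r3b. For Pygl the highest FET value was 6.84, from an estimated 23.8 fragments, and the lowest IVF value was 7.13. For Ppp1r3b the highest FET value was 2.07, from an estimated 28.8 fragments, and the lowest IVF value was 2.29, from 43.2. Ppp1r3c was then higher in every FET than in every IVF mouse, 1 of 10 against 6.72% of all genes tested. The lowest FET value was 0.929, from an estimated 4.07 fragments in FET mouse 2, and the highest IVF value was 0.915. The log2 fold changes of the other genes were -1.58 for Pck1, -1.43 for Ppp1r3b, -0.75 for Pygl, -0.44 for G6pc, -0.30 for Pcx, -0.25 for Ugp2, -0.06 for Fbp1, 0.14 for Gys2 and 0.66 for Ppp1r3c. That of Pck1 was 0 to 2 decimals without FET mouse 2 and -2.51 without FET mouse 3. Their signs for Fbp1, Pcx and Ugp2 turned after rescaling. The median of the set was -0.37 and that of all genes tested was -0.20, and after rescaling they were -0.06 and 0.02. After rescaling, the summed FPKM of 5 erythroid markers was 449 to 722 in FET and 194 to 259 in IVF mice. That of 5 exocrine pancreas markers was 4.56 to 5.78 in FET and 1.23 to 3.21 in IVF mice, and 1.67 to 3.36 in NC mice. Only 1 of these 5 had a mean FPKM of at least 1, and 4, 4 and 3 of them were at 0 in FET mice 2, 3 and 4. The other marker lists overlapped between FET and IVF mice, and the part of these markers in the results was not tested.

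**Figure D4:**
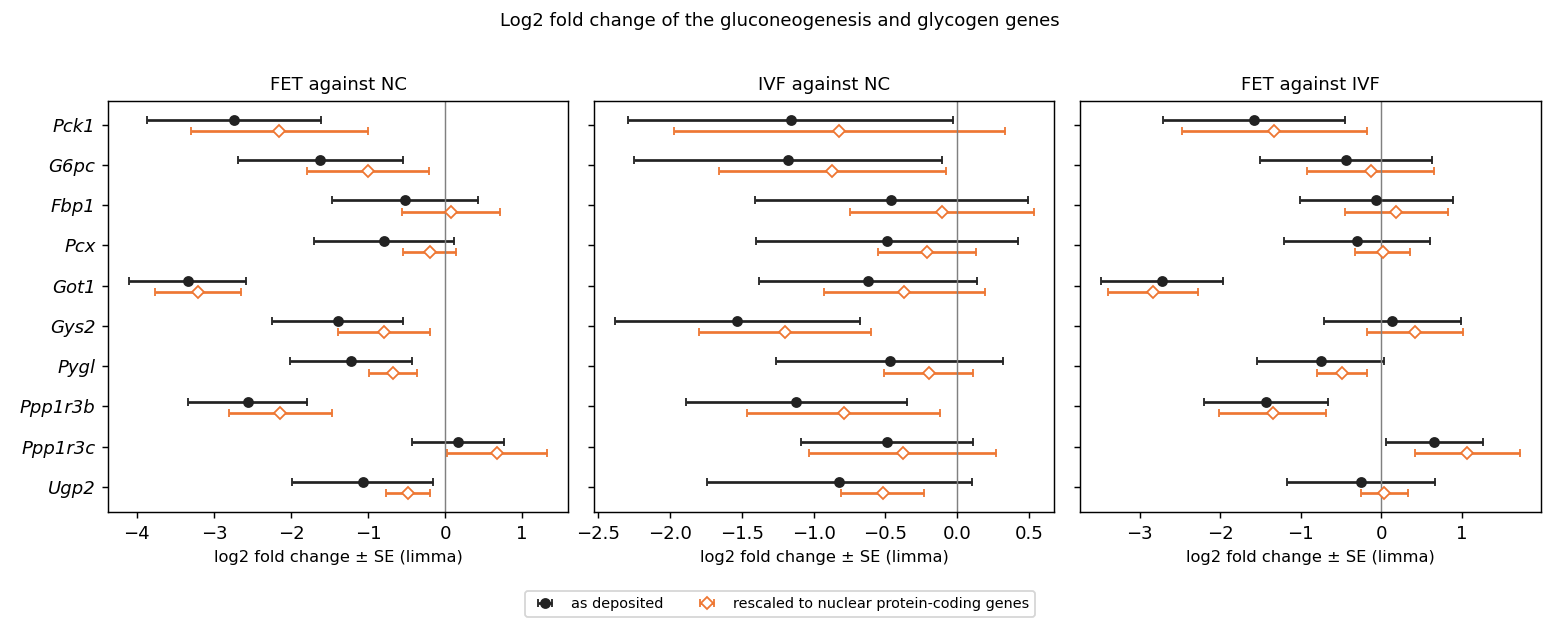
Log2 fold change of each gene with its standard error by limma (horizontal axis), in 3 panels of 1 comparison each, as deposited (filled) and rescaled to nuclear protein-coding genes (open). Got1 lies near -3 in both panels with FET and at -0.62 in IVF against NC, and only its FET against NC value passed the adjusted test on the deposited scale.

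Ratios of paired genes within a library do not depend on how libraries are scaled, apart from the added 1. The synthase to phosphorylase ratio, Gys2 to Pygl in FPKM, was 2.17, 1.86 and 2.42 in NC mice, 2.20, 0.541 and 0.809 in IVF mice and 1.55, 1.46 and 3.69 in FET mice. IVF mice 3 and 4 were the only mice with more Pygl than Gys2. On the log2 scale the ratio was 1.02 ± 0.19 in NC, -0.04 ± 0.86 in IVF and 0.86 ± 0.62 in FET mice (SD, n = 3), with exact permutation p-values, two-sided, of 0.2 for IVF against NC, 0.7 for FET against NC and 0.3 for FET against IVF. With 3 mice against 3, the smallest p this test can give is 0.1, so it cannot pass 0.05.

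Pck1 to G6pc, the first committed to the last step of gluconeogenesis, was 11.1, 1.06 and 1.66 in NC mice, 6.15, 2.96 and 1.2 in IVF mice and 0.0655, 4.60 and 3.88 in FET mice. FET mouse 2 was the only mouse with less Pck1 than G6pc. Between groups the log2 ratio differed by -1.12 in FET against NC (exact permutation p = 0.7), by 0.02 in IVF against NC (exact permutation p = 1.0) and by -1.14 in FET against IVF (exact permutation p = 0.8). The targeting subunits, Ppp1r3b to Ppp1r3c, stood at 2.59, 17.2 and 8.49 in NC, 15.5, 2.51 and 6.55 in IVF and 1.24, 1.61 and 0.155 in FET mice. All 3 FET mice lay below all other mice, and their log2 ratio differed by -2.73 from NC mice (-0.40 ± 1.21 against 2.33 ± 1.32, SD, n = 3) and by -2.1 from IVF mice (1.70 ± 0.80), each with the smallest exact permutation p of 0.1. Without FET mouse 4, which had the highest Ppp1r3c, these differences were -2.03 and -1.4, and with 0.1 added in place of 1 they were -3.32 and -3.03. In IVF against NC the log2 ratio of Ppp1r3b to Ppp1r3c differed by -0.63 (exact permutation p = 0.4). All 9 ratio tests are given unadjusted.

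**Figure D5:**
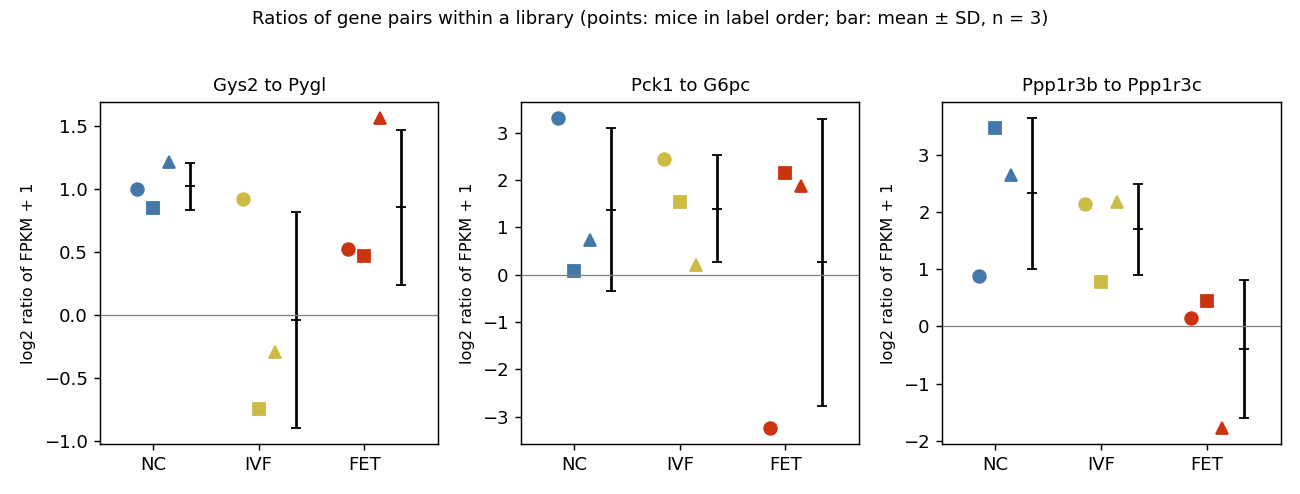
Log2 ratio of FPKM + 1 (vertical axis) of 3 gene pairs in each mouse, by group, with the mean and SD of 3 mice as a bar. The FET mice lie below all others for Ppp1r3b to Ppp1r3c, and FET mouse 2 lies alone at -3.24 for Pck1 to G6pc.

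The other steps of the gluconeogenic route, a list of 27 genes of which 24 were tested, held no gene that passed the adjusted test by limma in any comparison as deposited, against 0.237% of all genes tested in FET against NC, 0.0592% in IVF against NC and 0.0888% in FET against IVF. In FET against NC, 3 of 24 had an unadjusted p under 0.05 with a lower level, against 10.1% of all genes tested, 23 were negative, against 74.3%, and the median was -0.88 as deposited and -0.28 after rescaling, against -0.46 and -0.06. The 5 with the greatest differences were G6pc3, a second glucose 6-phosphatase gene found in most tissues, at -2.35, the glucose transporter Slc2a2 at -1.91, and the glycolytic and gluconeogenic enzymes Pgk1 at -1.51, Gapdh at -1.38 and Pgam1 at -1.37. G6pc3 was at 3.44, 5.30 and 5.32 FPKM in NC, 0.532, 1.76 and 4.11 in IVF and 0, 0.325 and 0 in FET mice, with an adjusted p by limma of 0.0574 as deposited and 0.0265 after rescaling, where it was 1 of 24 to pass, against 0.266% of all genes tested. The 0 of G6pc3 in FET mouse 2 likewise cannot be read as absence, and its change without that mouse is not given here. Slc2a2 was at 7.85, 23.4 and 20.9 FPKM in NC, 4.70, 2.80 and 5.67 in IVF and 7.83, 1.37 and 3.28 in FET mice. In IVF against NC the list had 1 gene with an unadjusted p under 0.05 and a lower level and a median of -0.42, against 2.86% and -0.25 over all genes tested, and in FET against IVF 1 gene and a median of -0.32, against 2.95% and -0.20. After rescaling the 2 medians were -0.15 and -0.03, against -0.07 and 0.02.

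The other glycogen genes, 25 of which 9 were tested, held none with an adjusted or an unadjusted p under 0.05 by limma in FET against NC, against 0.237% and, for a lower level, 10.1% of all genes tested. There 8 of 9 were negative, against 74.3%, with a median of -0.54 as deposited and -0.07 after rescaling, against -0.46 and -0.06. The greatest differences were in the phosphoglucomutase Pgm1 at -1.30, the phosphorylase kinase subunit Phkg2 at -0.76, the synthase kinase Gsk3a at -0.68, the lysosomal glucosidase Gaa at -0.60 and the phosphatase catalytic subunit Ppp1cb at -0.54. The median was -0.64 in IVF against NC and -0.09 in FET against IVF, against -0.25 and -0.20 over all genes tested. After rescaling these medians were -0.37 and 0.24, against -0.07 and 0.02.

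Of 24 hormone receptors and transcription factors known to act on these genes, 20 were tested and none passed the adjusted test by limma in any of the 3 comparisons as deposited, against 0.237% of all genes tested in FET against NC, 0.0592% in IVF against NC and 0.0888% in FET against IVF. In FET against NC, 5 of 20 had an unadjusted p under 0.05 with a lower level, against 10.1% of all genes tested, 18 were negative, against 74.3%, and the median was -0.90 as deposited and -0.40 after rescaling, against -0.46 and -0.06. Klf15, a fasting-induced factor of amino acid catabolism and gluconeogenesis, had the greatest difference, -3.12 (SE 0.80, adjusted p = 0.0619 by limma). Its FPKM was 9.55, 26.2 and 26.6 in NC mice, 2.20, 9.69 and 18.5 in IVF mice and 0.961, 0.591 and 2.86 in FET mice, with every FET mouse below every NC mouse. Others of the list were the stress-induced factor Atf4 at -2.05, the hepatocyte factor Foxa2 at -1.60 and the CREB coactivator Crtc2 at -1.32. In IVF against NC 1 of the list and in FET against IVF 4 had an unadjusted p under 0.05 with a lower level, against 2.86% and 2.95% of all genes tested, with medians of -0.39 and -0.33. After rescaling the median was -0.13 in both, against -0.07 and 0.02 over all genes tested.

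Over the 9 mice, the genes whose log2(FPKM + 1) was most like that of Pck1 by Pearson's r, as a description, were Gm5617 (0.966), Cacul1 (0.963) and Topors (0.961). Most like G6pc were the mitochondrial serine carrier Sfxn1 (0.976), Carmil1 (0.969) and the urea cycle enzyme Ass1 (0.969), which was at 40.5, 236 and 198 FPKM in NC mice, 24.96, 91.3 and 136 in IVF mice and 78.6, 47.2 and 31.0 in FET mice. Most like Got1 were the glycine decarboxylase Gldc (0.987), the cortactin gene Cttn (0.984) and the mitochondrial ribosomal protein gene Mrpl22 (0.978). Some of these genes were near the floor. Cacul1 and Topors were at 0 in FET mouse 2, the shallowest library, and at no more than 1.609 and 2.825 FPKM in any mouse. Cttn was at 0 in all 3 FET mice and Mrpl22 in FET mice 2 and 4. The 9 mice share their library depth and RNA composition between genes, which such values include, as they do differences between the groups.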

How the data were processed

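The authors trimmed reads, mapped them to the genome and deposited FPKM per gene and mouse, with no further scaling stated. The submitters' processing notes name FastQC 0.11.5, STAR 2.5.3a, StringTie 1.3.1c and DESeq2 1.16.1 without roles. The build and annotation are not given in the sources used here. Identifiers were matched to GENCODE vM21 (55154 of 55335). FPKM holds no counts, so limma 3.58.1 in R 4.3.3 was run on log2(FPKM + 1), over the 6755 genes averaging 1 FPKM or more, in 1 model of 3 groups with trended moderated variance, two-sided, with Benjamini-Hochberg adjusted p under 0.05 as the threshold. Ratios were compared by exact permutation tests (SciPy 1.17.1). Depth was estimated from steps of up to 8 fragments (tolerance 2%) in low FPKM values and covers counting error only. The fit was tested on simulated data. Alternatives were another added value (0.1), no filter, 2 scalings, a fit of only 2 groups, NC mouse 1 alone, leaving out each mouse, and a replicate block. All 10 genes are named. Of each pathway list, the 5 tested genes with the greatest difference in FET against NC are named, apart from 1 that is not reported here, and for Pck1, G6pc and Got1 the 3 most correlated genes. Members and lists were chosen with earlier results of these data known.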

Additional observations from a re-analysis of the deposited data

How the results depend on the processing

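Of 360 values for single genes of the set under the alternatives, 325 kept their direction and side of the threshold. Only Got1 in FET against NC was under the threshold at first, so for the others keeping the side meant staying above it. The call of Got1 was lost in 9 of its 12 alternatives. The limits are shallow FET libraries, 3 mice a group and uneven RNA composition. The cause of the changes listed here was not tested, apart from the fewer mice or added genes that an alternative itself brings.

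For FET against NC, 16 genes passed. This was 0 with no filter, 26 with median-ratio scaling, 0 in a fit of only the 2 groups and 1 to 83 on leaving out a mouse. The lowest count came without FET mouse 3 and the highest without NC mouse 1, and it was 57 without FET mouse 2. The count in the set was 1 (Got1). It was 0 with no filter, under either scaling and in the fit of 2 groups, and 0 to 2 on leaving out a mouse, with Got1 and Ppp1r3b without NC mouse 1. For Got1 the adjusted p by limma was 0.517 with no filter and 0.149 in the fit of 2 groups, with the log2 fold change at -3.34 in both. Over the alternatives with more than 1 NC mouse the adjusted p by limma ran from 0.00951 to 0.517. Over all alternatives the log2 fold change ran from -5.74 to -1.59, the last against NC mouse 1 alone, and was negative throughout. The median of the set was -0.55 against NC mouse 1 alone.

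For IVF against NC, 4 genes passed, against 0 with 0.1 added, with no filter, under both scalings and in the fit of 2 groups, and 0 to 24 on leaving out a mouse, the most without NC mouse 1. The median of the set, -0.72 with all mice, was 0.09 against NC mouse 1 alone, -0.21 without IVF mouse 2, -0.46 without NC mouse 5, -1.28 without IVF mouse 4 and -1.32 without NC mouse 1. For FET against IVF, 6 genes passed, against 0 with no filter and in the fit of 2 groups and 0 to 10 on leaving out a mouse (0 without IVF mouse 4, 2 without FET mouse 3, 3 without FET mouse 4, 10 without IVF mouse 2). The median of the set was -1.21 without IVF mouse 2 and 0.11 without IVF mouse 4. Mice 2, 3 and 4 of IVF and FET share only a number: their deviations correlated at -0.131, 0.022 and -0.255, and with the number as a replicate block 2 genes passed and 0 of the set.

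Directions turned for these genes of the set. In FET against NC, against NC mouse 1 alone, G6pc was 0.92 and Fbp1 0.91, and Fbp1 was 0.08 after rescaling to protein-coding genes. In IVF against NC, against NC mouse 1 alone, G6pc was 1.36, Fbp1 0.98, Got1 1.13, Pygl 0.27 and Ppp1r3b 0.64. In FET against IVF after rescaling, Fbp1 was 0.19, Pcx 0.02 and Ugp2 0.04. On leaving out a mouse, the values ran from -1.24 to 0.06 for Fbp1 and -0.36 to 0.56 for Ppp1r3c in FET against NC, from -1.18 to 0.01 for Fbp1, -1.20 to 0.36 for Pcx, -1.50 to 0.16 for Got1 and -1.03 to 0.05 for Pygl in IVF against NC, and from -1.30 to 0.35 for G6pc, -0.55 to 0.52 for Fbp1, -1.15 to 0.41 for Pcx, -0.25 to 0.57 for Gys2 and -0.89 to 0.43 for Ugp2 in FET against IVF. Likewise the difference in the log2 ratio of Gys2 to Pygl ran from -0.52 to 0.03 in FET against NC, and that of Pck1 to G6pc from -2.06 to 0.63 in FET against NC, -0.63 to 0.99 in IVF against NC and -2.08 to 0.61 in FET against IVF, positive without FET mouse 2 in both comparisons with FET. That of Ppp1r3b to Ppp1r3c ran from -3.45 to -2.03 in FET against NC, -1.36 to -0.06 in IVF against NC and -2.56 to -1.4 in FET against IVF.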

Other observations

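The genes of the set did not vary as 1 block. Among the 45 pairs of the 10 genes, Pearson's r over the 9 mice on log2(FPKM + 1) had a median of 0.57 with 42 pairs positive, and of 0.35 with 37 positive after rescaling to protein-coding genes. After rescaling, the pairs most alike were Pygl with Ppp1r3b (0.88), Got1 with Pygl (0.84) and Got1 with Ppp1r3b (0.78), and the least alike were Fbp1 with Pcx (-0.47) and Got1 with Ppp1r3c (-0.45). These are descriptions over mice that share library depth and RNA composition, and differences between the groups were left in. Got1, Pygl and Ppp1r3b were also the genes that were lower in every FET than in every NC and IVF mouse after rescaling. FET mouse 2, in which Pck1 was lowest, also had the highest summed FPKM of 6 Kupffer cell markers, 85.2 against 6.07 to 47.8 in the other mice, and the part of this in its values was not tested.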
